A study of Sus scrofa with 8 samples.

Results

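The myogenic transcription factors were taken as a list of 5 genes, MYOD1, MYOG, MYF5, MYF6 and MEF2C. Members were the probe sets whose single gene symbol in the platform's annotation was one of these. The rule found 3 of the genes among the 6765 named on the array, through 5 of its 23999 probe sets, 2 for MYOD1, 1 for MYF5 and 2 for MYF6. MYOG and MEF2C had no named probe set in the annotation used and were not analysed here. The brightest probe set of a gene, by mean log2 level over the 8 arrays, was taken to lead.

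MYOD1, MYF5, MYF6 and MYOG are basic helix-loop-helix (bHLH) proteins that pair with E-proteins and bind E-box sequences of muscle genes. MYF5 and MYOD1 commit cells to the muscle lineage and are active in satellite cells, the stem cells of muscle, once these leave rest. MYOG and MYF6 act later, and MYF6 is the member of the family kept at a high level in adult fibres. MEF2 proteins are partners that bind beside them and respond to calcium signals, and in denervated muscle the bHLH factors are known to rise.

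The muscle was the biceps femoris of the hind limb, taken from female domestic piglets (Sus scrofa) in a model of acute quadriplegic myopathy, the limb weakness of intensive care. The title of each array gave its group, 4 control and 4 corticosteroid (CS). Per the labels' protocols, both groups were kept under isoflurane, morphine and ketamine and ventilated for 5 days. Both received glucose, streptomycin and benzylpenicillin, and the corticosteroid group also had bolus doses of hydrocortisone, a glucocorticoid. The control text counts 4 piglets, weighing 25.5 kg on average, and adds Escherichia coli endotoxin at 36 µg/kg/h for 1 h, which the source label of those samples leaves out. The corticosteroid text counts 8 piglets, weighing 26.4 kg on average, and names no endotoxin. The series text describes a continuous infusion of the neuromuscular blocker pancuronium without saying which animals had it. No age is given. Endotoxin, the blocker and any processing batch cannot be told apart from group membership. Nothing in the labels ties each sample to a separate piglet, so the p-values rest on the spread between these samples alone, which may be technical.

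The array medians ran from 5.86 to 5.97 on the log2 scale. The labelled tissue was borne out by its fibre markers, of which 8 of 10 listed had a named probe set. Creatine kinase (CKM), titin (TTN), nebulin (NEB) and desmin (DES) each stood at 12.58 or more on every array. The lowest value of these 4 was that of DES in control 3. TNNT3 and MYLPF also stood at 12.58 or more. Of the slow-fibre markers, TNNT1 ran from 9.11 (corticosteroid 2) to 11.94 (control 2), and MYH7 from 10.83 (corticosteroid 2) to 13.15 (control 3). The corticosteroid columns were in another row order than the control columns and were re-assigned to the probe IDs sorted as text with full stops ignored. This moved both MYOD1 probe sets and left the MYF5 and MYF6 probe sets where they were. Control 2 had the lowest mean correlation with the other arrays of its group (r = 0.954 across probe sets, against 0.969 to 0.972 for the other controls), and corticosteroid 4 the lowest of its group (0.972, against 0.976 to 0.980). Differences of the members and named genes were also computed without these arrays.

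None of the members differed between corticosteroid and control muscle beyond the spread between arrays. The mean difference, corticosteroid minus control, was -0.06 log2 units for MYOD1, -0.34 for MYF5 and -0.19 for MYF6, where 46% of the 5406 genes tested had a lower mean. In the limma fit over 14361 probe sets, 0 of the 4 member probe sets that passed the filter on low values had an adjusted p under 0.05, and 0 had an unadjusted p under 0.05. Of all probe sets tested, 0% passed the adjusted threshold and 9.49% the unadjusted one. The groups overlapped for all 5 member probe sets, whereas they did not overlap for 5.56% of the probe sets tested. What the 4 tested member probe sets did show was a wide spread within groups, carried by a few arrays. For MYF5 it lay mostly in the controls.

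**Figure D1:**
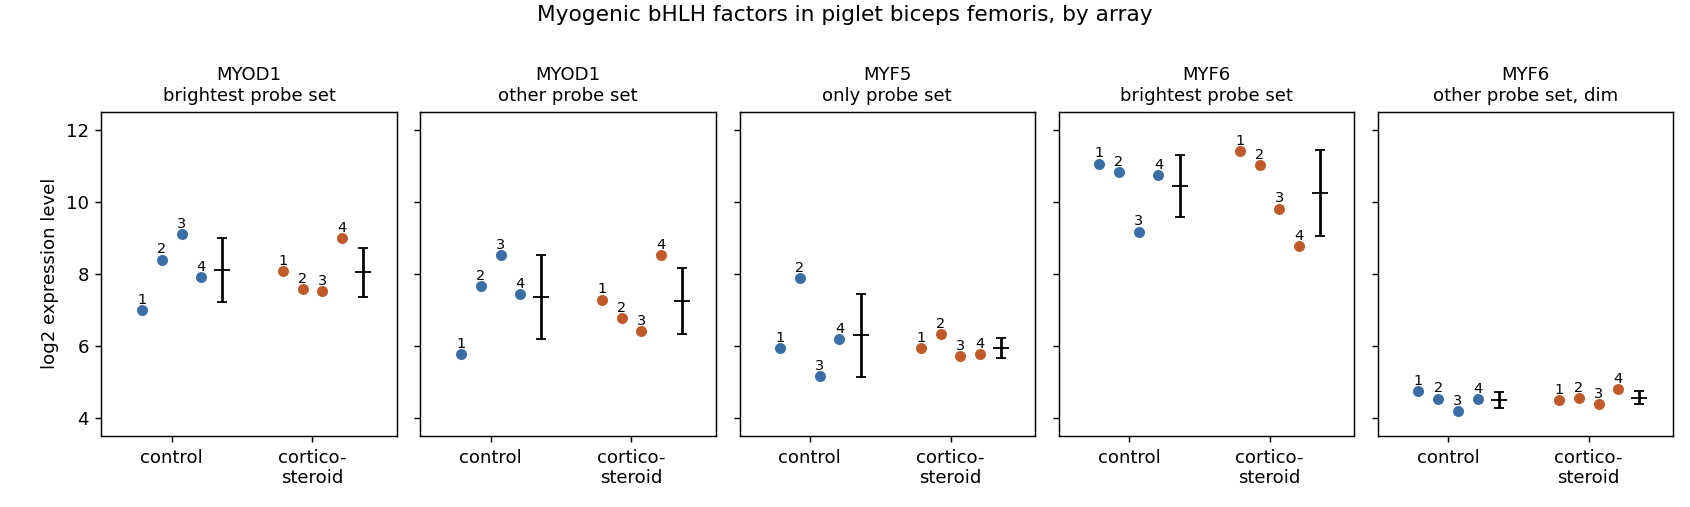
Log2 expression level (vertical axis) of the 5 member probe sets on the 8 arrays, with the replicate number above each point and the mean ± SD (n = 4) of each group in black. In every panel the points of the groups overlap, and on control 3 and corticosteroid 4 both MYOD1 probe sets are high and the bright MYF6 probe set is low.

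MYF6, also called MRF4, is the late-acting factor of adult fibres. Its brightest probe set read 11.06, 10.82, 9.17 and 10.73 on control arrays 1 to 4, and 11.40, 11.01, 9.81 and 8.78 on corticosteroid arrays 1 to 4. Control 3 and corticosteroid 4 were the lowest arrays, with corticosteroid 3 next, and the highest array of all was a treated one, so the groups overlapped fully. The mean log2 level was 10.44 ± 0.86 (SD, n = 4) in controls and 10.25 ± 1.19 (SD, n = 4) with corticosteroid. The difference of -0.19 had an SE of 0.60 and a 95% interval from -1.54 to 1.15, with an adjusted p of 0.925 in limma. This interval holds a fall of 2.90-fold as well as a rise of 2.22-fold. The sign of the difference rested on single arrays. It was 0.30 without corticosteroid replicate 4, 0.01 without control replicate 1 and -0.62 without control replicate 3, and 0.42 without control array 2 and corticosteroid array 4.

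The other MYF6 probe set was dim, although the annotation gives both the same sequence record (AY188502). Its mean of 4.53 lay below the filter level of 5.27, at the 29.1 percentile of all probe sets, and it was not tested in the main comparison. It ran from 4.20 (control 3) to 4.81 (corticosteroid 4) over the 8 arrays. In the fit without a filter its difference was 0.06 (SE 0.14, adjusted p = 0.905 in limma). As a difference of means it turned to -0.04 without control replicate 3 and to -0.02 without corticosteroid replicate 4. Control 3 was lowest here and low in the bright probe set, whereas corticosteroid 4 was the lowest array of the bright one and the highest of the dim one. Over the 8 arrays, which share their libraries, r between them was 0.13, and 0.61 without control 3 and corticosteroid 4.

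MYOD1, the determination factor that turns other cell types into muscle when forced on, had its brightest probe set (sequence record BX926835) at 6.99, 8.39, 9.11 and 7.91 on control arrays 1 to 4. On corticosteroid arrays 1 to 4 it stood at 8.07, 7.57, 7.52 and 8.99. Control 1 was the lowest array, and control 3 and corticosteroid 4 the highest, so that each group held both a high array and lower ones. The mean log2 level was 8.10 ± 0.89 (SD, n = 4) in controls and 8.04 ± 0.68 (SD, n = 4) with corticosteroid. The difference of -0.06 had an SE of 0.47 and a 95% interval from -1.11 to 0.99, or from a 2.16-fold fall to a 1.98-fold rise, with an adjusted p of 0.972 in limma. Leaving out control replicate 1 gave -0.43, and leaving out corticosteroid replicate 4 gave -0.38. It turned to 0.03 without control replicate 2, 0.27 without control replicate 3, 0.09 without corticosteroid replicate 2 and 0.11 without corticosteroid replicate 3.

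The second MYOD1 probe set (record NM_001002824) gave the same array pattern. It read 5.78, 7.67, 8.53 and 7.45 in controls and 7.29, 6.76, 6.41 and 8.51 with corticosteroid. Again control 1 was lowest and control 3 and corticosteroid 4 were highest. Its difference was -0.11 (SE 0.60), with a 95% interval from -1.46 to 1.23 and an adjusted p of 0.961 in limma. The 2 probe sets had r = 0.984 and rho = 0.976 over the 8 arrays, as a description of probe sets that share gene and libraries, and r was 0.965 without control 3 and corticosteroid 4. The first probe set lay above the second on every array, by 0.46 to 1.22 log2 units on control arrays and by 0.48 to 1.11 on corticosteroid arrays. In the rows as deposited this gap was 1.62 to 2.41 on corticosteroid arrays, outside the range of the controls. As deposited, the corticosteroid mean of the second probe set was 5.51, its difference -1.84 and its adjusted p 0.0096, so its call rests on the row order.

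MYF5, the earliest of these factors in development, has 1 probe set (record CN153858). In controls it stood at 5.94, 7.88, 5.15 and 6.18 on arrays 1 to 4, and with corticosteroid at 5.93, 6.34, 5.73 and 5.79. Control 2 was the highest of the 8 arrays by 1.54 log2 units and control 3 the lowest, below the filter level of 5.27, and the treated arrays lay close together between them. The mean log2 level was 6.29 ± 1.15 (SD, n = 4) in controls and 5.95 ± 0.28 (SD, n = 4) with corticosteroid. The difference was -0.34 (SE 0.48), with a 95% interval from -1.43 to 0.74 and an adjusted p of 0.818 in limma. Without control replicate 2 it was 0.19 (SE 0.26) and without control replicate 3 it was -0.72. Control 2 was the only array whose removal turned its sign, and leaving out corticosteroid 4 as well gave 0.24. In the current porcine gene table (Sscrofa11.1) MYF5 and MYF6 are next to each other, with no other protein-coding gene between them. Their levels had r = 0.47 over the 8 arrays, and 0.59 without control 2 and control 3.

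The spread of the tested member probe sets between arrays of the same group was large beside that of the other probe sets tested here. The SD within groups, pooled over both, was 0.79 log2 units for MYOD1 and 1.04 for its second probe set. It was 0.83 for MYF5 and 1.04 for the bright MYF6 probe set, but 0.20 for the dim MYF6 probe set. The median over the 14361 tested probe sets was 0.31 and their 90th percentile was 0.64. The bright MYOD1, MYF5 and MYF6 probe sets thus had a larger spread than 95%, 95.8% and 98.2% of tested probe sets. The spread of MYF5 came mostly from the controls (SD 1.15, against 0.28 with corticosteroid), while MYOD1 and MYF6 varied in both groups.

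**Figure D2:**
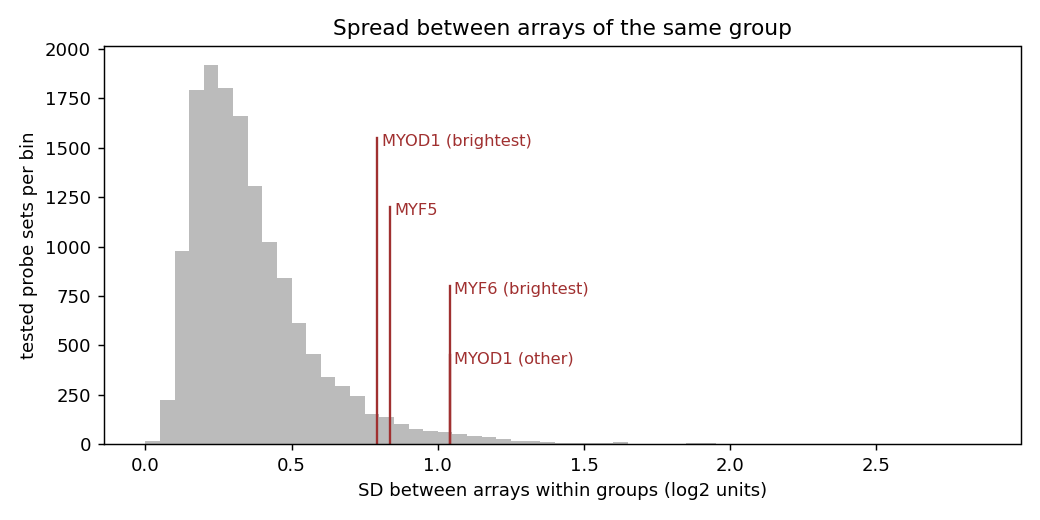
Number of tested probe sets (vertical axis) by the SD between arrays of the same group, pooled over both groups (horizontal axis, log2 units, bins of 0.05), with red lines, whose height has no meaning, at the 4 tested member probe sets. All 4 lie in the right tail, at 0.79 or more, where the median of all is 0.31.

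MYOD1 and MYF6 ran against each other across the arrays, in both groups. The 2 arrays with the highest MYOD1, control 3 and corticosteroid 4, were the 2 with the lowest MYF6. Over the 8 arrays r was -0.68 and rho -0.52, and r was -0.69 for deviations from the group means. Without these 2 arrays r was 0.14, so the relation rested on them. MYF5 had r = -0.11 with MYOD1, and 0.66 without control 3 and corticosteroid 4.

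FBXO32, or atrogin-1, is a ubiquitin ligase of muscle wasting that is known to target the MyoD protein for degradation. MyoD protein was not measured here, and a link to it was not tested. The FBXO32 transcript separated the same arrays. It read 12.64, 11.68, 10.76 and 12.87 on control arrays 1 to 4, and 12.90, 12.46, 13.19 and 10.37 on corticosteroid arrays 1 to 4. Control 3 and corticosteroid 4, where MYOD1 was highest, were its 2 lowest arrays. Over the 8 arrays FBXO32 had r = -0.85 and rho = -0.69 with MYOD1, and only 8 of 5405 genes had a lower r with MYOD1. Without control 3 and corticosteroid 4 r was -0.46. With MYF6 it had r = 0.74, which turned to -0.33 without those arrays. Its own group difference was 0.24 (SE 0.64, adjusted p = 0.911 in limma), and leaving out control 3 gave -0.16, leaving out corticosteroid 3 -0.08.

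**Figure D3:**
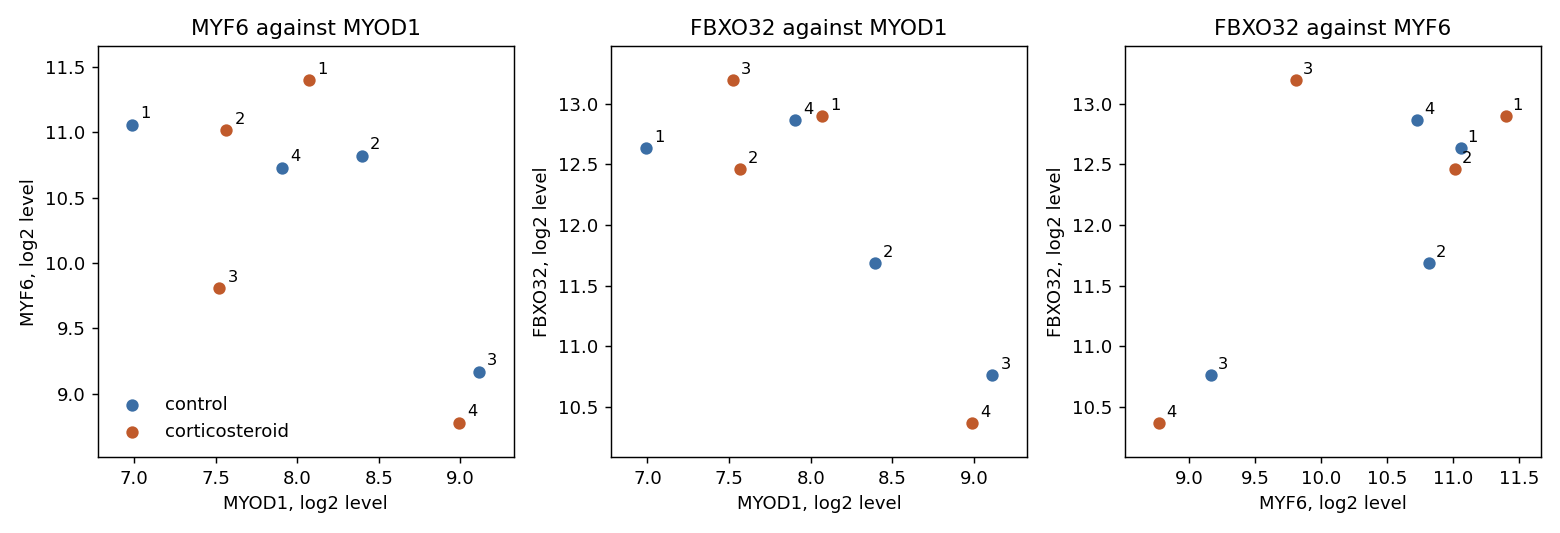
Log2 levels on the 8 arrays of MYF6 against MYOD1, of FBXO32 against MYOD1 and of FBXO32 against MYF6, with replicate numbers beside the points and groups by colour. Control 3 and corticosteroid 4 stand apart in each panel, with high MYOD1, low MYF6 and low FBXO32.

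Of the 59 other pathway genes tested, 5 had r below -0.7 with MYOD1 and 0 had r above 0.7. These 8.47% compare with 1.96% of the 5405 other genes tested, though the pathway lists were chosen with earlier results of these data known. The genes were FBXO32, KLF15, a transcription factor induced by glucocorticoids (r = -0.82), MEF2A, a MEF2 family member (r = -0.74), SIX4, a homeobox factor that acts upstream of the bHLH factors (r = -0.72), and TEAD1, a factor that binds MCAT elements of muscle genes (r = -0.71). Without control 3 and corticosteroid 4 r was -0.64 for KLF15, -0.52 for MEF2A, -0.87 for SIX4 and -0.67 for TEAD1, so that of the 5 only SIX4 lay below -0.7. KLF15, SIX4 and TEAD1 were chosen after their values were seen. KLF15 read 9.31, 7.46, 7.33 and 8.69 in controls and 9.55, 9.61, 9.43 and 7.93 with corticosteroid. It was thus low on control 2 as well as on control 3 and corticosteroid 4. GADD45A, a stress gene that rises in denervated muscle, also chosen after its values were seen, had r = -0.68 with MYOD1 and was lowest on corticosteroid 4 (9.38). For MYF6, 3.39% of pathway genes and 2.39% of all genes lay beyond 0.7 in either direction. Of the pathway genes 1 lay below -0.7, the repressor BHLHE40 (r = -0.82, and -0.89 without control 3 and corticosteroid 4), and 1 above 0.7, FBXO32. BHLHE40 was highest where MYF6 was lowest, at 8.40 on corticosteroid 4, against 5.75 to 6.97 on the other arrays. For MYF5, 3.39% of pathway genes and 15.2% of all genes lay beyond 0.7 in either direction. The pathway genes were RCAN1, an inhibitor of calcineurin (r = 0.72), and CHRNA1, a subunit of the acetylcholine receptor (r = 0.70). Without control 2 and control 3 these were -0.01 and -0.66, and RCAN1 was chosen after its values were seen.

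The genes most like each member were named by their Pearson r over the 8 arrays among the 5405 other genes tested, as a description. For MYOD1 these were RNF170, a ubiquitin ligase of the endoplasmic reticulum (r = 0.85), FANCF, of the Fanconi anaemia complex (r = 0.85), and CEPT1, an enzyme of phospholipid synthesis (r = 0.84). For MYF6 they were the mitochondrial enzyme HOGA1 (r = 0.95), NDUFA5, a subunit of respiratory complex I (r = 0.89), and ING3, a subunit of a histone acetylase complex (r = 0.89). Without control 3 and corticosteroid 4 these 6 values ran from 0.66 for RNF170 to 0.95 for CEPT1. For MYF5 they were METTL8, an RNA methyltransferase (r = 0.99), ERP29, a protein of the endoplasmic reticulum (r = 0.96), and TMEM106C (r = 0.95). Without control 2 and control 3 the r of METTL8 was 0.90, that of ERP29 0.50 and that of TMEM106C 0.44.

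Several markers of other cells were, like MYF5, highest on control 2. In bulk tissue, fewer cells of a type and less RNA per cell cannot be told apart. The fibroblast markers (4 of 6 named, COL1A2, COL3A1, DCN and LUM) had a mean log2 level of 9.51 on control 2, 8.42 to 8.75 on the other controls and 8.41 to 9.07 on corticosteroid arrays (r = 0.89 with MYF5 over 8 arrays, and 0.67 without control 2 and control 3). COL1A2, DCN and LUM were each highest on control 2, but COL3A1 was lowest there, at 6.48 against 6.74 to 7.74 on the other arrays. The macrophage markers (4 of 7 named, CD163, CD14, C1QA and C1QC) stood at 8.59 on control 2, 7.08 to 7.62 on the other controls and 6.49 to 7.44 with corticosteroid. The mean of the smooth muscle and pericyte markers (4 of 6 named) was also highest on control 2, at 9.95. It ran from 8.88 to 9.95 in controls and from 8.89 to 8.99 with corticosteroid. ACTA2, CNN1 and RGS5 were each highest on control 2, but PDGFRB was highest on control 3 (10.32, against 10.09 on control 2). Of 4 satellite cell markers, PAX7 and CDH15 had no named probe set, and PAX3 and CALCR were dim. CALCR, the calcitonin receptor of resting satellite cells, stood at 6.0 on control 2 and at 3.91 to 4.67 on the other arrays. PAX3 stood at 4.47 on control 2, within 4.27 to 4.62 on the others. Their part in the MYF5 level was not tested.

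The mean of the macrophage markers was lowest on the arrays that set MYOD1 and MYF6 apart, at 6.49 on corticosteroid 4 and 7.08 on control 3, but control 4 (7.10) and corticosteroid 3 (7.14) were close to the latter. Of the 4 genes only C1QC had its 2 lowest values on these arrays, and CD14 was lowest on control 4. The macrophage mean had r = 0.63 with MYF6 and -0.26 with MYOD1 over the 8 arrays. Without control 3 and corticosteroid 4 these were 0.25 and 0.47. The mean of the 8 named fibre markers ran from 12.89 to 13.16 in controls and from 12.65 to 12.85 with corticosteroid. These ranges did not overlap, but 4 of the markers had higher and 4 lower means, with a median difference of -0.02. The list mean was 13.16 on control 3 and 12.69 on corticosteroid 4. TNNT1 and MYH7, of slow fibres, were lower on all corticosteroid arrays. Their differences of -1.78 and -1.17 were the largest of the list. TNNT3, of fast fibres, and CKM were higher on all corticosteroid arrays. None of these 4 markers passed in limma, where the lowest adjusted p was 0.469. Among all genes tested, the groups of 5.42% did not overlap. Endothelial markers (7 of 7 named) ran from 7.67 to 7.92 in controls and from 7.65 to 7.86 with corticosteroid. The ranges of the other lists were 4.49 to 4.90 and 4.58 to 4.79 for lymphocytes, 7.70 to 9.19 and 7.61 to 9.83 for adipocytes, and 6.36 to 6.68 and 6.46 to 6.85 for Schwann cells, in controls and with corticosteroid. Their part in the MYOD1 and MYF6 levels was not tested.

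The partners, regulators and targets of the bHLH factors were taken from 9 lists, chosen with earlier results of these data known. Over these lists, 68 of 137 genes had a named probe set and 59 passed the filter, 29 with higher and 30 with lower means. Their median difference was -0.02 log2 units, against 0.03 over the 5406 genes tested, and leaving out single arrays gave -0.07 to 0.09. None of the 59 passed in limma (0 adjusted p under 0.05), and 8 had an unadjusted p under 0.05, 5 higher and 3 lower. Among all 5406 genes 0% and 9.17% did, with 5.27% higher and 3.9% lower at the unadjusted threshold and 54% higher in mean. The count of 8 ran from 4 without control replicate 2 to 16 without corticosteroid replicate 1, and was 13 without control replicate 1 and 5 without any 1 of control replicate 3 and corticosteroid replicates 2, 3 and 4.

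**Figure D4:**
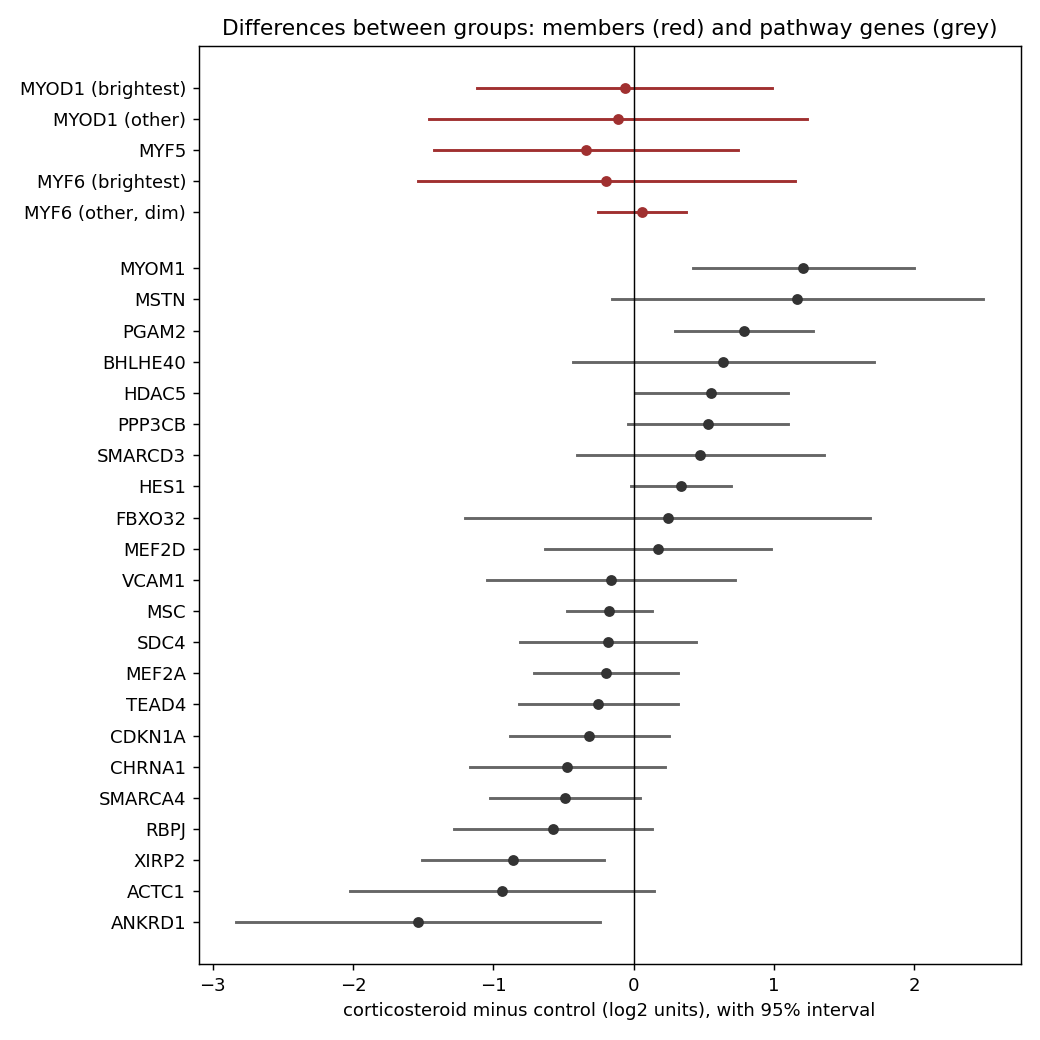
Difference in mean log2 level, corticosteroid minus control, with the 95% interval of the limma fit, not adjusted for the number of genes, for the 5 member probe sets (red) and for the pathway genes named by rule (grey). The intervals of all member probe sets include 0, from -0.34 for MYF5 to 0.06 for the dim MYF6 probe set.

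Among dimer and DNA-binding partners, MEF2A differed by -0.19 (SE 0.23) and MEF2D by 0.17 (SE 0.36), and MEF2D turned to -0.12 without corticosteroid replicate 4. Leaving out single arrays gave -0.38 to -0.06 for MEF2A. The only named E-protein, TCF4, was dim, at 4.35 to 4.57 in controls and 3.96 to 4.21 with corticosteroid. Its groups did not overlap, nor did those of 5.56% of the tested probe sets, a share that leaves out dim ones. In the fit without a filter TCF4 differed by -0.33 (SE 0.10, adjusted p = 0.515 in limma). Its row was among those re-ordered, and it was chosen after its values were seen. TCF3 and TCF12 had no named probe set.

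The inhibitors held 6 tested genes of 9 named and 16 listed, 3 with higher and 3 with lower means, and 0 had an unadjusted p under 0.05. ID1 and ID3, which bind E-proteins and keep them from the bHLH factors, differed by -0.31 (SE 0.29) and -0.18 (SE 0.23), and both were chosen after their values were seen. Leaving out single arrays gave -0.53 to -0.14 for ID1 and -0.35 to -0.05 for ID3, and ID3 was 0.02 without control array 2 and corticosteroid array 4. Their r with MYOD1 was 0.13 and 0.43 over the 8 arrays, and 0.82 and 0.96 without control 3 and corticosteroid 4. ID4, the other ID gene tested, went the other way, with a difference of 0.11 (SE 0.18). Its r with MYOD1 was -0.13, and -0.54 without those arrays, and it too was chosen after its values were seen. The Notch target HES1 differed by 0.34 (SE 0.16), BHLHE40 by 0.64 (SE 0.48) and the repressor MSC (musculin) by -0.17 (SE 0.14). BHLHE40 differed by 0.12 without corticosteroid replicate 4. Of the 5 genes listed as class II deacetylases and SIRT1, only HDAC5, which holds MEF2 proteins silent, had a named probe set. HDAC5 differed by 0.55 (SE 0.24, adjusted p = 0.524 in limma). It stood at 7.61, 7.35, 7.26 and 7.66 in controls and at 7.34, 8.19, 8.27 and 8.30 with corticosteroid. Corticosteroid 1 lay within the control range and the other treated arrays above it.

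Of 5 coactivators and partner factors tested, 2 had higher and 3 lower means. The chromatin remodellers SMARCA4 (BRG1) and SMARCD3 (BAF60C) differed by -0.49 (SE 0.24) and 0.48 (SE 0.39), and TEAD4 by -0.25 (SE 0.25). SMARCD3 was 0.20 without corticosteroid replicate 4, 0.23 without control replicate 3, 0.75 without control replicate 4 and 0.07 without control array 2 and corticosteroid array 4, and TEAD4 was -0.11 without control replicate 1, -0.12 without corticosteroid replicate 3 and -0.43 without control replicate 3. Of 12 upstream signalling genes, 4 had higher and 8 lower means. The calcineurin subunit PPP3CB differed by 0.53 (SE 0.25), RBPJ, which carries Notch signals to DNA, by -0.58 (SE 0.32), and MSTN, or myostatin, an inhibitor of muscle growth, by 1.17 (SE 0.59, adjusted p = 0.549 in limma). PPP3CB was 0.33 without corticosteroid replicate 4, and RBPJ was -0.89 without control replicate 1. Myostatin read 7.49, 5.40, 5.40 and 7.82 in controls and 6.87, 8.03, 7.60 and 8.29 with corticosteroid. Control 2 and control 3 were low, and the other controls overlapped the treated arrays. In the satellite cell and myoblast list, 5 of 22 genes were tested. The cell cycle inhibitor CDKN1A differed by -0.32 (SE 0.25), the syndecan SDC4 by -0.18 (SE 0.28) and the adhesion molecule VCAM1 by -0.16 (SE 0.39), and VCAM1 turned to 0.16 without corticosteroid replicate 1 and to 0.13 without control replicate 2. CDKN1A was -0.14 with control 4 left out and -0.15 with corticosteroid 3 left out, and SDC4 ran from -0.48 without corticosteroid replicate 1 to -0.05 without corticosteroid replicate 4.

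Of the 9 tested targets in differentiation and denervation, 3 had higher and 6 lower means, with a median difference of -0.20, which turned to 0.09 (5 higher, 4 lower) without control replicate 1. CHRNA1, the acetylcholine receptor subunit that rises in denervated fibres under E-box control, stood at 7.31, 8.02, 6.60 and 6.78 in controls and at 6.61, 6.30, 6.95 and 6.96 with corticosteroid. Its difference was -0.47 (SE 0.31, adjusted p = 0.614 in limma), and -0.19 without control replicate 2. Its r was -0.02 with MYOD1, 0.09 with MYF6 and 0.70 with MYF5, and the last turned to -0.66 without control 2 and control 3. The embryonic and cardiac actin ACTC1 differed by -0.94 (SE 0.48), and by -0.49 without control replicate 2. ANKRD1, a stretch-responsive ankyrin protein, differed by -1.54 (SE 0.58, adjusted p = 0.482 in limma). It read 11.09, 12.20, 12.54 and 11.26 in controls and 12.01, 10.12, 9.41 and 9.39 with corticosteroid, so corticosteroid 1 stood among the controls and the other treated arrays lay below them. TRIM63, CHRNG, MYH3 and MYH8 had no named probe set.

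Of 19 tested MEF2 target genes, 13 had higher and 6 lower means, where 54% of all genes tested were higher. The list was chosen with earlier results of these data known, so its counts and median are a description only. Their median difference was 0.53, against 0.03 over all genes tested, and it was 0.29 without corticosteroid replicate 4 and 0.22 without control array 2 and corticosteroid array 4. An unadjusted p under 0.05 was reached by 6 of them, 4 higher and 2 lower, against 9.17% of all genes, and 0 passed after adjustment in limma. That count was 3 with corticosteroid 3 left out, 10 with control 1 left out and 9 with corticosteroid 1 left out, and was 4 without any 1 of control replicates 2 and 3 and corticosteroid replicate 4. MYOM1, the M-band protein myomesin, differed by 1.21 (SE 0.35, adjusted p = 0.479). PGAM2, the muscle form of phosphoglycerate mutase, differed by 0.79 (SE 0.22, adjusted p = 0.469), with all treated arrays (13.36 to 13.98) above all controls (12.32 to 13.21), as the groups of 5.42% of genes tested did not overlap. XIRP2, a repeat protein of fibre junctions known to respond to MEF2A, differed by -0.86 (SE 0.29, adjusted p = 0.479). MYOM1 stood at 10.85, 9.43, 10.44 and 10.24 in controls and at 10.75, 11.34, 11.55 and 12.15 with corticosteroid, where only corticosteroid 1 lay within the control range.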

How the data were processed

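The deposited table holds log2 expression levels per probe set of an Affymetrix porcine array, 1 column per array. Per the submitters' processing notes MAS5 was used; the scaling between arrays is unknown, and none was added. Corticosteroid values were re-assigned to the probe IDs sorted as text with full stops ignored, an order found from the values, with 0 tied IDs; it moved 9389 of 23999 rows. Over moved rows the group means had r = 0.0997 as deposited and 0.9888 after re-ordering, against 0.9887 over unmoved rows. Another 64 reporter probe sets were not used. Of the probe sets, 10069 had 1 symbol, 198 had several and 13732 had none.

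limma 3.58.1 in R 4.3.3 (lmFit, eBayes with trend) tested 14361 probe sets with a mean above the 40th percentile, with Benjamini-Hochberg adjustment at 0.05. The fit was also run on simulated data with independent noise per probe set, which cannot cover array patterns shared by many genes. A gene was represented by its brightest probe set (5406 genes). The number of arrays limits the precision; the median SE was 0.219. Tables used Python 3.11.15, pandas 2.3.3, numpy 2.4.6 and scipy 1.17.1. Members and lists were chosen with earlier results of these data known. Named were all member probe sets, up to 3 genes of smallest p per list, FBXO32, TRIM63, CHRNA1, CHRNG, MYH3, MYH8 and the 3 genes of highest r with each member. Alternatives were a block for the replicate number, 2 scalings, no filter or a 60th percentile filter, 16 added to the linear value, 3 other variance or weight models, the mean of a gene's probe sets, the rows as deposited, each array left out and, chosen after seeing the data, control array 2 and corticosteroid array 4 left out.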

Additional observations from a re-analysis of the deposited data

Results flagged for a closer look

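Among the member probe sets and 38 other named genes, 86 groups of 4 arrays were checked for a highest or lowest array far from the rest, and 6 were found, where chance gives about 1 in 20. No member probe set was among them. MEF2A stood at 10.5 on corticosteroid 2, with the nearest array at 10.14. HDAC5 stood at 7.336 on corticosteroid 1, against 8.187 for the nearest. SDC4 was at 8.337 on corticosteroid 1 (nearest 7.191), and VCAM1 at 10.99 on control 2 (nearest 9.914). TCF4, which is dim, was at 3.964 on corticosteroid 3 (nearest 4.171), and KLF15 at 7.93 on corticosteroid 4 (nearest 9.431).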

How the results depend on the processing

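With the rows as deposited 5454 probe sets and 22 pathway genes passed the adjusted threshold, and 6101 and 26 had an unadjusted p under 0.05. The second MYOD1 probe set then differed by -1.842, MEF2D by -3.837, MSC by 6.314, PPP3CB by -3.192, PGAM2 by -8.384 and TCF4 by 7.082. Without a filter 2160 probe sets had an unadjusted p under 0.05. The pathway count at an unadjusted p under 0.05 was 5 with array weights and 5 without control array 2 and corticosteroid array 4. Array weights turned MYF5 to 0.004996, MYF6 to 0.118, ERP29 to 0.0471, TMEM106C to 0.0574 and HOGA1 to 0.0568. Without control array 2 and corticosteroid array 4 the difference was 0.241 for MYF5, 0.421 for MYF6, -0.253 for MEF2D, -0.0736 for RNF170, 0.145 for ERP29, 0.121 for TMEM106C, 0.134 for HOGA1, 0.208 for ING3 and 0.0222 for ID3. The mean of a gene's probe sets gave -0.0251 for SIX4 and 0.0527 for TEAD1. The cause was not tested. The 2 scalings turned no named difference.

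Leaving out 1 array at a time, the number of probe sets called ran from 0 to 1 (without control replicate 3), and the number at an unadjusted p under 0.05 from 894 to 1777. The pathway count ran from 4 to 16. Differences whose sign turned ran from -0.43 to 0.27 for MYOD1, -0.64 to 0.28 for the second MYOD1 probe set, -0.72 to 0.19 for MYF5, -0.62 to 0.30 for MYF6, -0.12 to 0.47 for MEF2D, -0.42 to 0.16 for VCAM1, -0.16 to 0.86 for FBXO32, -0.097 to 0.12 for RNF170, -0.36 to 0.21 for ERP29, -0.32 to 0.18 for TMEM106C, -0.19 to 0.14 for HOGA1, -0.39 to 0.12 for ING3, -0.31 to 0.71 for GADD45A, -0.039 to 0.33 for SIX4 and -0.28 to 0.23 for TEAD1. Deviations of same-numbered arrays had r from -0.246 to 0.109, and those of other pairs from -0.315 to 0.268. These values showed no pairing by replicate number, but with 4 arrays per group they cannot exclude one. With the replicate block MYF6 differed by -0.19 (SE 0.43, against 0.60 in the main fit) and MYOD1 by -0.06 (SE 0.49, against 0.47). The count of calls was 0.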

Other observations

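CXCR4, a chemokine receptor of satellite cells and leukocytes, had the highest r with MYOD1 among the 59 pathway genes (r = 0.70, and 0.81 without control 3 and corticosteroid 4). It read 5.56, 7.60, 6.22 and 6.37 in controls and 6.01, 5.91, 5.30 and 8.83 with corticosteroid. Its highest array, corticosteroid 4, is one of the 2 with the highest MYOD1, while control 3, the other, lay in the middle of its range. CXCR4 was chosen after its values were seen.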
